A study of Mus musculus with 2 samples.

Results

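The uroplakin family was read here as 6 mouse genes, Upk1a, Upk1b, Upk2, Upk3a, Upk3b and Upk3bl, out of 25668 gene symbols in the deposited tables. Members were taken by symbol, and all 6 were found in both libraries. The family was chosen by its TPM values in these same libraries, so its values are a description and carry no test. The tested library came from murine fallopian tube (oviduct) epithelial organoids in which Trp53, the gene of the tumour suppressor p53, had been knocked out, with the genotype label Trp53 KO. The control library came from normal fallopian tube epithelial organoids with the genotype label WT, and was established from a mouse line that carries a Cas9 and EGFP transgene (CAG-cas9*,-EGFP) at the ROSA locus. Both libraries carried the treatment label conditioned medium. The age of the animals, the guide used and whether the knockout organoids were 1 clone are not stated in the labels.

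Uroplakins are the membrane proteins that pack into rigid plaques on the luminal face of the superficial (umbrella) cells of the bladder. Upk1a and Upk1b are tetraspanins, proteins that cross the membrane several times, and each associates with a partner that crosses it once: Upk1a with Upk2, and Upk1b with Upk3a or Upk3b. Outside the bladder, Upk3b is used as a marker of mesothelium, and Upk3bl is a relative named for its similarity to Upk3b.

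The family did not move as a block. Upk3bl was far higher in the Trp53 knockout library, Upk2 was higher from a low base, Upk1a was lower, Upk3b stood at about the same level in both, and Upk3a and Upk1b were at or near 0 in both. The summed abundance of the 6 genes was 429 TPM (length-scaled transcript abundance) in the knockout library and 18.7 TPM in the control library, 22.9 times as much. Without Upk3bl the other members summed to 6.94 TPM in the knockout library and 16.2 TPM in the control library. Upk3bl made up 98.4% of the family's TPM in the knockout library and 13.3% in the control library. Upk1a made up 0.454% in the knockout library and 78.1% in the control library. The main uroplakin transcript was therefore Upk3bl in the knockout library and Upk1a in the control library.

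**Figure D1:**
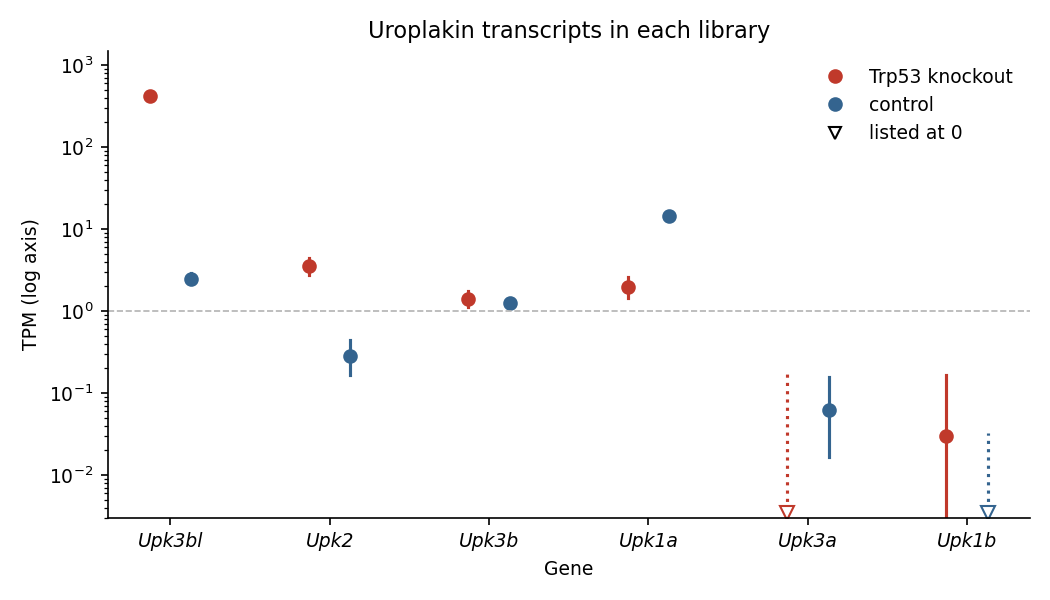
TPM of each uroplakin (log axis) in the Trp53 knockout library (red, left) and the control library (blue, right), with exact 95% Poisson intervals of the reads behind each value. The dashed line marks 1 TPM and open triangles mark values listed at 0. Upk3bl stands at 422 TPM in the knockout library and 2.49 TPM in the control library, and Upk1a at 1.95 TPM in the knockout library and 14.6 TPM in the control library, while the Upk3b points lie close together.

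Since each genotype had 1 library, differences could not be tested and have no replicate check. Intervals are at 95% and come from reads recovered from the TPM values. They cover counting error only. Estimated reads came to 27688213 in the knockout library and 100099420 in the control library, so a single read was worth more TPM in the knockout library. In bulk RNA, fewer cells of a type and less RNA per cell cannot be told apart. Trp53 itself was 2.42 TPM in the knockout library and 83.2 TPM in the control library.

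A difference is the log2(TPM + 1) level of the knockout library less that of the control library, and a gene was called higher or lower at 2-fold on this scale if its mean was at least 1 TPM. Of the 6 members, 4 passed this filter, 2 of them were called higher and 1 lower, and 2 members lay below the filter. Among all 11228 genes that passed, 8.35% were called higher and 15.3% lower, 23.6% in all. Upk2 passed only because of its level in the knockout library, so the members' count is read for nothing beyond itself. The median difference was 0.96 over the 4 members that passed, 0.07 over all 6 and −0.17 over all genes that passed.

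**Figure D2:**
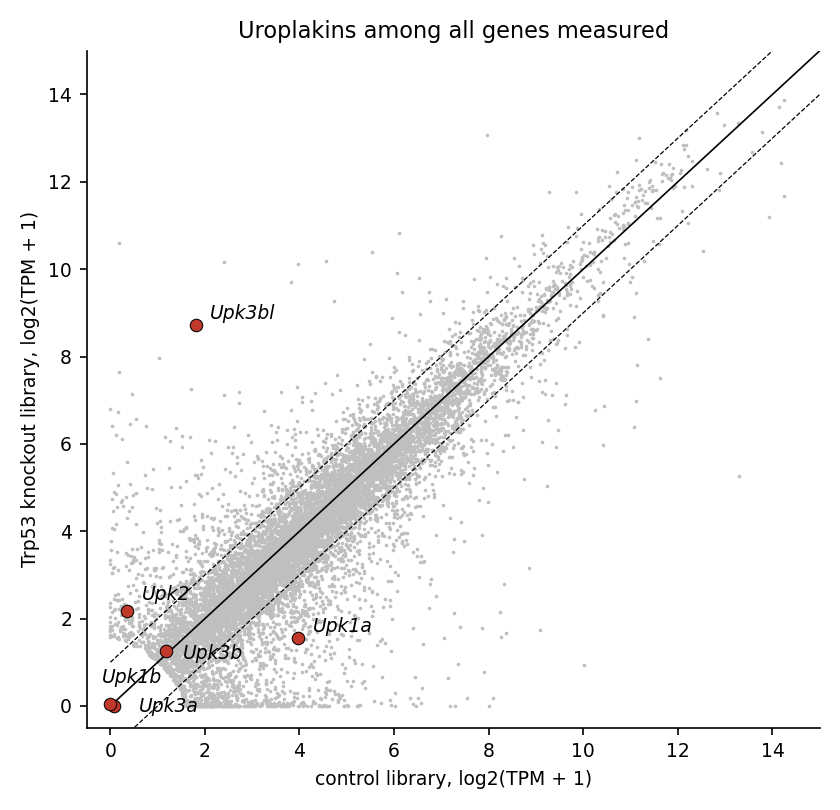
Levels as log2(TPM + 1) in the control library (horizontal) and the Trp53 knockout library (vertical) for genes with a mean of at least 1 TPM (grey) and for the 6 uroplakins (red). The solid line marks equal levels and the dashed lines 2-fold differences. Upk3bl lies far above the upper dashed line and Upk2 above it at low level. Upk1a lies below the lower dashed line, and Upk3b close to the solid line.

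Upk3bl had the clearest difference of the family. It stood at 422 TPM in the knockout library, rank 347 among the genes of that library. In the control library it stood at 2.49 TPM, rank 10026. The TPM ratio was 169.8, and the difference of 6.92 was the 5th highest of the 11228 genes. Its TPM gave whole reads in both libraries only at gene lengths that are multiples of 304 bases, none of which is a length annotated in GENCODE M21. At 1216 bases, the multiple nearest to its longest protein-coding transcript of 1119 bases, the value rested on 9084 reads in the knockout library and 180 reads in the control library, with a ratio interval of 146.5 to 197.9. At 304 bases, the shortest multiple, it rested on 2271 reads in the knockout library and 45 in the control library, and the interval was 126 to 233.5. At each multiple up to 2736 bases the interval lay far above 2.

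Upk3b is the next gene to Upk3bl on mouse chromosome 5, and both are read from the same strand. It stood at 1.41 TPM in the knockout library (88 reads) and 1.27 TPM in the control library (266 reads). The ratio of 1.11 had an interval of 0.865 to 1.42, which includes 1, so no difference was detectable at this depth and a change of more than 1.42-fold lay outside the counting interval. Per length, Upk3bl was 299.7 times as abundant as Upk3b in the knockout library (interval 243 to 374) and 1.96 times as abundant in the control library (interval 1.62 to 2.38), with Upk3bl taken at 1216 bases.

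Sequence shared between these relatives was measured, since reads that fit several genes can be split between them. None of the 1070 stretches of 50 bases (the read length) in the longest protein-coding Upk3bl transcript occurred in a transcript of another gene of GENCODE M21, and the same held for the 3481 stretches of Upk3b. The longest run that the Upk3b and Upk3bl transcripts shared was 12 bases. Since no annotated Upk3bl length gave whole reads, the gene model behind its deposited values may differ from this transcript. Sharing by that model was not tested. The other members, too, had 0 stretches in common with another gene, and the longest run any pair of members shared was 14 bases.

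The 250 bases before the annotated start of Upk3bl, Upk3b and Upk1a are shown because these are the neighbouring pair that differed and the member called lower. No promoter sequence was available for Upk2 and Upk1b, so these members were not searched. Sequences are from RefSeq on GRCm38.p6, whereas the deposited values were made on GRCm39, so the positions apply to these sequences alone. Upk3bl is at chr5:136057017-136057266 on the plus strand, Upk3b at chr5:136038246-136038495 on the plus strand and Upk1a at chr7:30612735-30612984 on the minus strand. Letters run 5′ to 3′ and capitals mark motif matches.
Upk3bl: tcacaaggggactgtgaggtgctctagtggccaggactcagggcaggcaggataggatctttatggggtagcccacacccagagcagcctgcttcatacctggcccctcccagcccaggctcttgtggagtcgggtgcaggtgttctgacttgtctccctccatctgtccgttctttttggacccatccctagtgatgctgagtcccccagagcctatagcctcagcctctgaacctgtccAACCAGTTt
Upk3b: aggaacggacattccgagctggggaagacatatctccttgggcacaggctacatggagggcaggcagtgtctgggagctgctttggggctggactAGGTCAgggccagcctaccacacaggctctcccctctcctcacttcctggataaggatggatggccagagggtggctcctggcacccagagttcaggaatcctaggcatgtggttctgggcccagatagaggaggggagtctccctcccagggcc
Upk1a: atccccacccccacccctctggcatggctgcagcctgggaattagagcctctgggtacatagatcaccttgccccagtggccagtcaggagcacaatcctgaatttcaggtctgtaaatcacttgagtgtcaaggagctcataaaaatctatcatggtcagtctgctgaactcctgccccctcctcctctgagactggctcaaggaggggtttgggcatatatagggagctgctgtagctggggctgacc

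Both strands were searched for 6 motifs. The motif of GATA factors was searched as AGATAA. Sites of AP-1, the Fos and Jun dimer, were searched in the form TGANTCA. Grainyhead factors, the family of Grhl3, were represented by the letters AACNNGTT. For nuclear receptors the word searched was AGGTCA. The box bound by the general transcription machinery was searched as TATAAA. For the p53 family only the unit RRRCWWGYYY was searched (R is A or G, W is A or T, Y is C or T), whereas the usual consensus repeats this unit. The Upk3bl window held 1 match, AACCAGTT at bases 242 to 249, and 3.64% of 32851 RefSeq promoter windows of this length held AACNNGTT. The Upk3b window held 1 match, AGGTCA at bases 96 to 101, which 14.0% of windows held. No match to the 6 motifs, as spelled above, lay in the Upk1a window. Other spellings of these motifs were not searched, so their absence from any window is not shown. The Upk3a window held an AGATAA match on the minus strand at bases 63 to 68 and 1 p53 family unit at bases 238 to 247. Of all windows, 9.99% held AGATAA and 7.13% held such a unit. No matches overlapped. These are descriptions of letters and say nothing about binding.

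Genes around the pair on chromosome 5 did not share the Upk3bl difference. Dtx2, on the other side of Upk3b, was 7.73 TPM in the knockout library and 6.39 TPM in the control library. Rasa4, the next gene with a deposited value beyond Upk3bl, was 0.123 TPM in the knockout library and 0.0628 TPM in the control library, below the filter. Polr2j, which follows it and encodes a subunit of RNA polymerase II, was 67.4 TPM in the knockout library and 67.5 TPM in the control library. Of the 12 genes plotted around Upk3bl, only Hspb1, the small heat shock protein at the edge of the window, was past 2-fold, at 712 TPM in the knockout library and 70.7 TPM in the control library. Hspb1, Polr2j and the plotted window were chosen after values were seen. Over the 713 genes of chromosome 5 that passed the filter the median difference was −0.19, and over the chromosomes of the other members it was −0.22 (chromosome 7), −0.31 (chromosome 9), −0.17 (chromosome 15) and −0.35 (chromosome 16).

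**Figure D3:**
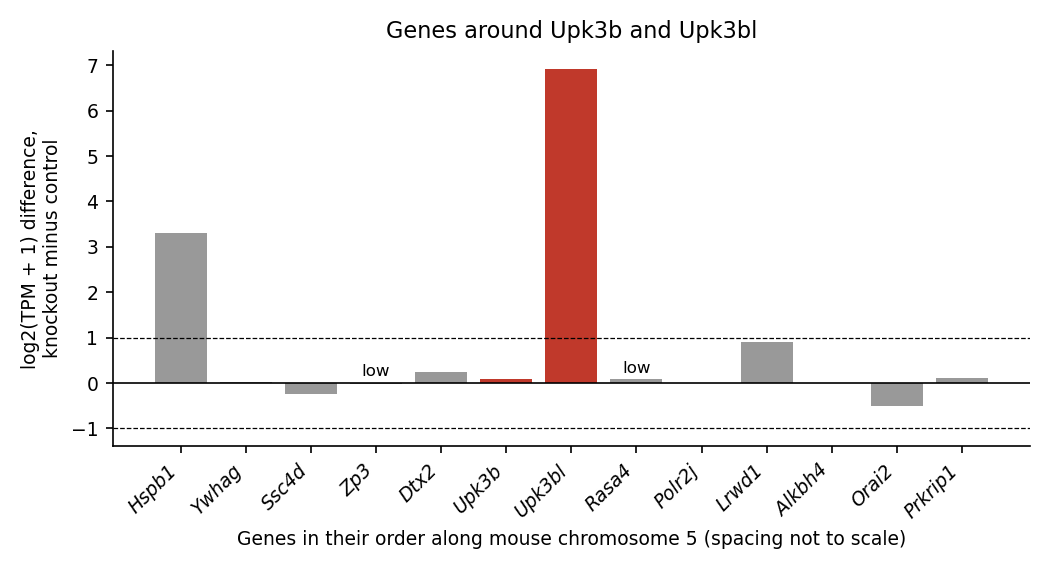
Differences in log2(TPM + 1), knockout minus control, for 6 genes on either side of Upk3bl in the order of the RefSeq annotation of chromosome 5 (bars, uroplakins in red). The word low marks genes under a mean of 1 TPM and the dashed lines mark 2-fold. The Upk3bl bar reaches 6.92 beside an Upk3b bar of 0.09, and Hspb1 is the other bar past the lines.

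Upk1a, the tetraspanin that pairs with Upk2, was the member called lower. It stood at 1.95 TPM in the knockout library (49 reads, rank 9752) and 14.6 TPM in the control library (1236 reads, rank 5534). The difference was −2.40, and the control level was 7.50 times the knockout level, with an interval of 5.63 to 10.2. Its neighbour Zbtb32, a zinc finger gene on chromosome 7, was higher, at 11.1 TPM in the knockout library and 1.03 TPM in the control library. Its other neighbour, Cox6b1 of the respiratory chain, was 2044 TPM in the knockout library and 1854 TPM in the control library.

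Upk2, the partner of Upk1a, was higher in the knockout library. It stood at 3.55 TPM there (68 reads) and at 0.279 TPM in the control library (18 reads), a ratio of 12.7 with an interval of 7.47 to 22.7. On the log2(TPM + 1) scale, which shrinks low values, the difference was 1.83. With Upk1a lower and Upk2 higher, the order of the pair turned round. Upk2 was 1.82 times as abundant per length as Upk1a in the knockout library (interval 1.24 to 2.69) and 0.0191 times as abundant in the control library (interval 0.0113 to 0.0303). Upk2's neighbours on chromosome 9 did not show its difference: Foxr1 was listed at 0 in both libraries, and Bcl9l was 8.18 TPM in the knockout library and 11.1 TPM in the control library.

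Upk3a and Upk1b, which form a partner pair in the bladder plaque, were barely detected. Upk3a was listed at 0 in the knockout library, where a floor of 3 reads corresponds to 0.155 TPM, and at 0.0615 TPM (4 reads) in the control library. The control level lies under the knockout floor, so a difference was not detectable at this depth. Upk1b rested on 1 read in the knockout library (0.0298 TPM) and was listed at 0 in the control library, where the floor of 3 reads corresponds to 0.0266 TPM, and no fold is given. Next to Upk1b on chromosome 16, B4galt4, a galactosyltransferase, was 0.0611 TPM in the knockout library and 10.8 TPM in the control library, and Tex55 was listed at 0 in both. Next to Upk3a on chromosome 15, 5031439G07Rik was 26.5 TPM in the knockout library and 27.7 TPM in the control library, and Fam118a was 1.66 TPM in the knockout library and 2.43 TPM in the control library.

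The order of levels differed between the libraries. In the knockout library it was Upk3bl, Upk2, Upk1a, Upk3b, Upk1b and Upk3a. The Poisson intervals of Upk1a (1.44 to 2.58 TPM) and Upk3b (1.13 to 1.74 TPM) overlapped there, as did those of Upk1b and Upk3a, while Upk2 (2.76 to 4.50 TPM) lay above Upk1a. In the control library the order was Upk1a, Upk3bl, Upk3b, Upk2, Upk3a and Upk1b. There the intervals of Upk3bl (2.14 to 2.88 TPM) and Upk3b (1.12 to 1.43 TPM) did not overlap, and Upk2 (0.165 to 0.441 TPM) lay just above Upk3a (0.0168 to 0.157 TPM). Only the intervals of Upk3a and Upk1b (0 to 0.0327 TPM) overlapped.

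Genes with the most similar pair of levels were taken by the distance over log2(TPM + 1) in the 2 libraries. Nearest to Upk3bl were Tpm2, a tropomyosin (248.9 TPM in the knockout library and 1.03 TPM in the control library), Gsta1, a glutathione transferase (152 TPM in the knockout library and 2.27 TPM in the control library), and Krt13, a keratin of stratified epithelium (1140 TPM in the knockout library and 4.29 TPM in the control library). Their distances of 1.09 to 1.55 were much larger than those of the genes nearest to the other members, which were at most 0.0946. Nearest to Upk1a were Nox1, Gsap and Slc41a2, with 1.85 to 1.86 TPM in the knockout library and 14.1 to 15.3 TPM in the control library. Nearest to Upk2 were Gjb5, a connexin (3.51 TPM in the knockout library and 0.273 TPM in the control library), Apobr and Nrp2. Nearest to Upk3b were Ralgps1, Fmn1 and Zfp568, whose knockout and control levels all lay between 1.24 and 1.46 TPM. With 2 libraries this likeness is a description of 2 values.

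Other tetraspanins are the superfamily of Upk1a and Upk1b. Of 29 genes 22 passed the filter, 1 was called higher and 7 lower (3 at 4-fold), beside 8.35% and 15.3% of all genes. The median difference was −0.47, beside −0.17 over all genes. Tspan1 was the higher gene, at 870.03 TPM in the knockout library and 205.2 TPM in the control library. Tspan6 was 0.192 TPM in the knockout library and 28.9 TPM in the control library, and Tspan13 was 5.12 TPM in the knockout library and 45.3 TPM in the control library. Tspan6 passed the filter only because of its level in the control library, which favours a lower call. Cd9, the next highest difference, stood at 784 TPM in the knockout library and 457 TPM in the control library, under 2-fold.

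Among genes that move uroplakins to the surface and turn plaques over, 12 of the 14 found passed the filter, with 1 higher and 0 lower and a median difference of 0.04. That number of higher genes is near the 8.35% over all genes. Mal, a proteolipid of apical transport vesicles, was the higher gene, at 163 TPM in the knockout library and 36.0 TPM in the control library. Rab27b, a GTPase of the vesicles that carry uroplakins, was 9.86 TPM in the knockout library and 5.84 TPM in the control library. Tollip, an adaptor of endosomal sorting, was 14.96 TPM in the knockout library and 27.2 TPM in the control library, and the SNARE gene Vamp8 was 186 TPM in the knockout library and 304 TPM in the control library. Snx31, a sorting nexin that binds uroplakins, was listed at 0 in the knockout library and at 0.591 TPM in the control library.

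Several transcription factors of urothelial differentiation were higher in the knockout library. Of 16 genes 14 passed, 7 were called higher and 1 lower, beside 8.35% and 15.3% of all genes, and the median difference was 1.14. Foxa1, Gata3, Grhl3 and Trp63 passed the filter only because of their level in the knockout library, so this count, too, is read for nothing beyond itself. At a mean of at least 5 TPM or at 4-fold, 4 were higher and 0 lower, and with a pseudocount of 5 TPM, 6 were higher and 0 lower. Trp63, the p53 relative of basal cells, was 15.97 TPM in the knockout library and 0.0280 TPM in the control library. Grhl3, a grainyhead factor of umbrella and surface cells, was 7.30 TPM in the knockout library (360 reads) and 0.0241 TPM in the control library (4 reads). Tbx2 was 1.39 TPM in the knockout library and 5.50 TPM in the control library, and Elf3, an epithelial ETS factor, was 236 TPM in the knockout library and 374 TPM in the control library. Pparg, a nuclear receptor that drives uroplakin transcription in urothelium, was below the filter at 0.0221 TPM in the knockout library and 0.203 TPM in the control library. It was named after its value was seen.

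The largest differences of the lists were those of Krt5 and Krt13, keratins of basal and stratified epithelium, in the list of urothelial keratins and surface markers. Of 15 genes 14 passed, 7 were called higher and 1 lower (0 lower at 4-fold), beside 8.35% and 15.3% of all genes. The median difference was 1.25. Krt5, Krt14 and Krt17 passed the filter only because of their level in the knockout library. The higher genes included Krt5, a basal keratin, at 1543 TPM in the knockout library and 0.130 TPM in the control library, and Krt13 with the values given above. The lower gene was Krt20, the keratin of umbrella cells, at 1.88 TPM in the knockout library and 9.77 TPM in the control library. Psca, a surface marker of this list, was called higher, at 60.3 TPM in the knockout library and 1.88 TPM in the control library. Psca was named after its value was seen. Krt18, a simple epithelial keratin, was 2317 TPM in the knockout library and 3144 TPM in the control library. Like Krt7, Krt8 and Cldn4, it was not called in either direction. Krt20 and Upk1a were thus both lower in the knockout library, while Psca, Upk2 and Upk3bl were higher there.

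**Figure D4:**
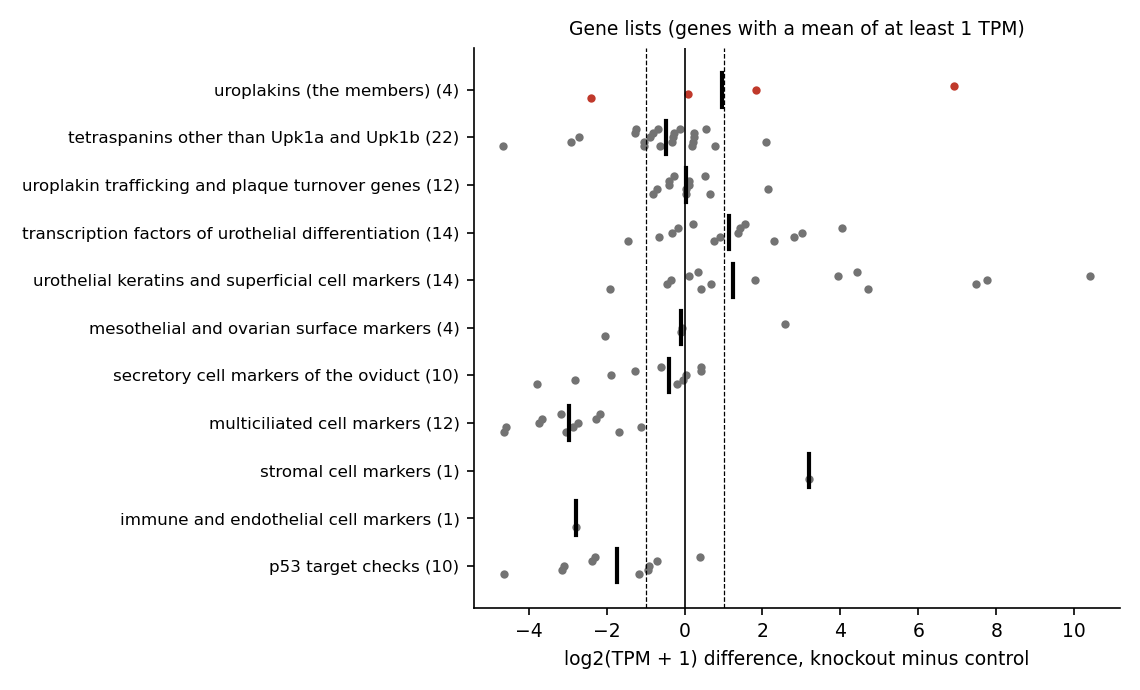
Differences in log2(TPM + 1), knockout minus control, for genes with a mean of at least 1 TPM in each list (points, uroplakins in red), with list medians (black bars), 2-fold lines (dashed) and the number of genes in parentheses. The uroplakins run from −2.40 to 6.92, and the lists of urothelial transcription factors and keratins have medians of 1.14 and 1.25.

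Lists of cell type markers were read beside the uroplakins. Some differed between the libraries, and their part in the uroplakin values was not tested. Mesothelial and ovarian surface markers were read because Upk3b marks mesothelium. Of 12 genes 4 passed, 1 was called higher and 1 lower, beside 8.35% and 15.3% of all genes. The higher gene was Pdpn, at 91.3 TPM in the knockout library and 14.4 TPM in the control library. The lower gene was Wt1, at 7.85 TPM in the knockout library and 35.3 TPM in the control library. The list summed to 360.2 TPM in the knockout library and 325 TPM in the control library. Msln, mesothelin, which oviduct epithelium also expresses, was 232 TPM in the knockout library and 243 TPM in the control library. Nr2f1, an orphan nuclear receptor, was 28.7 TPM in the knockout library and 30.9 TPM in the control library. The list median was −0.09, and 5 genes were listed at 0 in the knockout library, the shallower of the pair, and 3 in the control library. Gpm6a, Muc16, Rspo1 and Lhx9 were at or under 0.0287 TPM in both libraries. Also under the filter, Bnc1 was 0.592 TPM in the knockout library and listed at 0 in the control library. Nkain4 and Calb2 were listed at 0 in the knockout library. In the control library they were 0.627 TPM (Nkain4) and 0.164 TPM (Calb2).

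Secretory cell markers of the labelled epithelium all passed the filter, 10 of 10. Of these, 0 were higher and 4 lower (2 at a mean of at least 5 TPM or at 4-fold), beside 8.35% and 15.3% of all genes. Ovgp1, Folr1 and Slc1a3 passed only because of their level in the control library. The median difference was −0.40, and the list summed to 6742 TPM in the knockout library and 5413 TPM in the control library. Wfdc2, a secreted protease inhibitor, was 4594 TPM in the knockout and 3423 TPM in the control library, and Krt7 was 1167 TPM in the knockout library and 877 TPM in the control library. Folr1, a folate receptor, was 0.0253 TPM in the knockout and 13.2 TPM in the control library, and Ovgp1, the oviduct glycoprotein, was 0.192 TPM in the knockout library and 7.44 TPM in the control library. Multiciliated cell markers were lower in 12 of the 12 genes that passed (median −2.96), beside 15.3% of all genes. Many of them, such as Mlf1, Ccno and Mcidas, passed the filter only because of their level in the control library. That favours a lower call, so the count is read for nothing beyond itself. The list summed to 81.2 TPM in the knockout library and 433 TPM in the control library. In the knockout library 6 of the 14 genes were listed at 0, against 0 in the control library. The smallest differences were those of Foxj1, the master factor of motile cilia at 52.7 TPM in the knockout library and 115.9 TPM in the control library, and Mcidas, at 0.0476 TPM in the knockout library and 2.35 TPM in the control library. The largest were those of Mlf1, at 0.372 TPM in the knockout library and 33.3 TPM in the control library, and Ccno, at 0.181 TPM in the knockout library and 27.4 TPM in the control library.

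Stromal markers summed to 18.0 TPM in the knockout library and 1.56 TPM in the control library, of which Acta2 held 17.8 TPM in the knockout library and 1.07 TPM in the control library. The other 9 genes were at most 0.379 TPM in either library. More of them were listed at 0 in the knockout library (8 of 10) than in the control library (1 of 10), but control values such as those of Col1a1 and Col3a1 rested on 3 reads and 1 read, and a difference was not detectable at the knockout depth. Immune and endothelial markers summed to 0.503 TPM in the knockout library and 9.004 TPM in the control library, of which the macrophage receptor Csf1r held 0.420 TPM in the knockout library and 8.78 TPM in the control library. The highest value among the other genes of this list was that of Ptprc in the control library, at 0.0886 TPM. The macrophage marker Adgre1 was listed at 0 in the knockout library and at 0.0363 TPM in the control library. Of the 10 genes in the p53 check, which counts Trp53, 6 were lower and 0 higher, beside 15.3% and 8.35% of all genes. The median difference of this list was −1.73. Eda2r, a p53 target, was 0.0943 TPM in the knockout library and 8.69 TPM in the control library, while Bax was 148 TPM in the knockout library and 245 TPM in the control library. Eda2r passed the filter only because of its level in the control library, which favours a lower call. Phlda3 was 225 TPM in the knockout library and 169 TPM in the control library.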

How the data were processed

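RNA of 2 organoid libraries was compared, 1 per genotype, grouped by the genotype labels. Per the labels' protocols, total RNA was made into directional libraries and sequenced as paired reads of 50 bases. The authors deposited TPM for each gene symbol, on the build GRCm39 according to the submitters' processing notes. Neither aligner nor counter nor annotation is given in the sources used here.

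TPM keeps no depth by itself. Reads (single or paired, not given) were recovered from the steps of low values, with each gene's longest protein-coding transcript in GENCODE M21 as its length. Of 16053 genes with such a length and a value above 0, 35.2% came out within 0.001 of whole reads in both libraries, as did 5 of the 6 members. A listed 0 counted as whole. Upk3bl was handled through the lengths from 200 to 3000 bases that give whole reads. Read totals take this length for every gene and are estimates. Ratio intervals are Clopper-Pearson and level intervals Poisson, both exact and at 95%. Without molecular identifiers, reads may repeat molecules.

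Members and the 10 other gene lists were chosen with earlier results of these data known. Named genes are the members, Trp53, the 2 highest and 2 lowest differences of each list, the 3 genes nearest in level to each member that passed the filter, and each member's nearest annotated genes with a deposited value. Others are marked or are list genes at 0 or near it. Gene order, chromosomes and gene type came from RefSeq on GRCm38.p6. The steps were run on reads simulated with these same gene lengths. That run could not show whether the lengths fit the deposited values. Python 3.11.15, pandas 2.3.3, numpy 2.4.6 and scipy 1.17.1 were used. The alternatives were other pseudocounts, filters, scalings, a 4-fold threshold and thinned control reads.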

Additional observations from a re-analysis of the deposited data

How the results depend on the processing

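No called uroplakin difference changed sign under the 9 alternatives. The count of 1 member called lower, and the counts over the 10 other lists together (18 higher, 33 lower), held or moved by at most 1.5 times under these alternatives. The 2 members called higher became 1 with a pseudocount of 5 TPM, a mean of at least 5 TPM or a 4-fold threshold, since Upk2 is low. With a pseudocount of 0.1 TPM the differences were −2.84 (Upk1a), 0.38 (Upk1b), 3.27 (Upk2), −0.69 (Upk3a) and 7.35 (Upk3bl), with a member median of 1.71. With 5 TPM they were −1.50 (Upk1a), 0.70 (Upk2) and 5.83 (Upk3bl), with a median of 0.36, and 563 genes were higher and 930 lower, against 937 and 1715 in the text. Quantile normalization gave −2.09 (Upk1a), 0.11 (Upk1b), 2.11 (Upk2), 0.58 (Upk3b) and 7.12 (Upk3bl), with a median of 1.35, and moved the median of all genes to 0.03 and the share of calls that were higher to 49.4%, against 35.3%. Median ratio scaling moved the median of all genes to −0.04 and Upk1b to 0.047. Without mitochondrial and the 100 highest genes, the differences were 0.073 (Upk1b), 2.28 (Upk2), −0.14 (Upk3a) and 7.13 (Upk3bl), with a median of 1.20. The member median was 0.065 without a filter and 2.26 at a mean of at least 5 TPM, where 1091 genes were lower and where Upk1b, Upk2, Upk3a and Upk3b give no value. At 4-fold, 267 genes were higher and 661 lower. Thinning used the median of 21 draws and moved none of the member values past their counting intervals. Of 180 counts for single lists, 10 moved by more than 1.5 times, 5 of them in the list of urothelial transcription factors. No paired analysis was possible because each group has 1 library. Depth limits Upk3a and Upk1b, which rest on 4 reads or fewer.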
